A study of Mus musculus with 2 samples.

Results

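The genes described here encode the mitochondrial respiratory chain: subunits and complex I assembly factors whose mouse symbols start with Nduf, Uqcr or Atp5, match Cox4 to Cox8, or are Sdha, Sdhb, Sdhc or Sdhd. The choice rested on gene symbols and used no measured value, but it was made with earlier results of these data known. It gave 93 of the 20660 genes that could be named on the array, carried by 124 probes. By role, 38 belong to complex I by their symbol, 8 are complex I assembly factors, and 4, 8, 18 and 17 belong to complexes II, III, IV and V. Ndufa4 is counted with complex I by its symbol, although its protein is found in complex IV. Subunits encoded by mitochondrial DNA carry other symbols and are not among these genes.

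The respiratory chain sits in the inner mitochondrial membrane. Complexes I and II pass electrons from NADH and succinate to coenzyme Q, complex III passes them on to cytochrome c, and complex IV, cytochrome c oxidase, passes them to oxygen. Complexes I, III and IV pump protons as they do so, and complex V, the ATP synthase, lets the protons flow back and makes ATP. Erythroid progenitors need functioning mitochondria, where the first and last steps of heme synthesis also take place, and lose these organelles on their way to the red cell.

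ESAM, an adhesion molecule of endothelial cells, platelets and hematopoietic stem cells, was deleted in one of the compared mouse groups. WT and ESAM-KO mice of the C57BL/6 strain, 8 to 12 weeks old, were given 1 injection of 5-fluorouracil (5-FU) at 120 mg/kg, a drug that kills cycling marrow cells. Bone marrow was taken on day 8, and pre CFU-E, early progenitors committed to the erythroid lineage, were sorted as c-Kit+, endoglin+ and CD150+ cells with low CD41, no or low FCgRII/III, and neither Sca1 nor lineage markers. Marrow cells of 3 mice per genotype were pooled before the sort. RNA of the sorted cells was amplified, labelled with Cy3 and hybridised to 1 Agilent mouse array per genotype. Each group thus rests on 1 array, and both groups had 5-FU. No untreated mice were measured, and a difference between the genotypes cannot be told apart from a difference between the pools, sorts or amplifications.

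Signals are given as relative signals, multiples of the 75th percentile of all spots on the same array. That percentile was an unscaled signal of 201.4 for WT and 251.1 for ESAM-KO. Ratios are log2 of the relative signal in ESAM-KO over WT, so a value above 0 means a higher relative signal in ESAM-KO. The error beside a ratio is the one the scanner software assigned to both signals. It was 0.20 (log2) for most genes, and it does not cover differences between mice or between RNA preparations. With 1 array per group there is no SD and no test, and a ratio is described as higher or lower, not as a change. Probes differ in brightness for the same amount of RNA, so signals are compared between the arrays and not between genes. High signals served only to choose genes to name and to set brightness classes, and sums over probes only to compare the arrays. In RNA from sorted cells in bulk, fewer cells of a type and less RNA per cell cannot be told apart.

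The sorted cells carried erythroid transcripts on both arrays. Kit gave a relative signal of 16.9 in WT and 13.2 in ESAM-KO, and the erythroid transcription factor Gata1 gave 29.6 and 23.5. Slamf1, which encodes the sort marker CD150, was at 0.0884 and 0.0916. Esam itself was dim on both arrays, at 0.136 in WT and 0.0820 in ESAM-KO (log2 ratio -0.73 ± 0.31), and its probe gives no clear check of the genotype. All 10 neutrophil genes examined were past 2-fold lower in ESAM-KO. Their median log2 ratio was -3.32, and their summed relative signal was 291.0 in WT and 39.95 in ESAM-KO. Of 6 B cell genes, 5 had a ratio, and Cd79b (-2.09) and Vpreb1 (-2.45) were past 2-fold lower. Of 7 macrophage genes, 4 had a ratio, with Vcam1 at -2.88 and C1qa at 1.19. The part of these other cell types in the ratios of the respiratory chain genes was not tested.

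Many nuclear genes of the respiratory chain are known targets of NRF1, of the ETS factor GABP and of YY1, and the promoters of 4 members are shown to make such motifs visible. RefSeq promoter windows of assembly GRCm38.p6, 300 bases each with 250 before the start and 50 from it on, were found for 76 members (81 windows). They were searched on both strands for NRF1 (GCGCA and GCGC separated by 1 base of any kind), for ETS (CCGGAAGT) and for YY1 (AANATGG followed directly by CGGC). The letters of the 3 motifs can overlap in GC-rich sequence. Ndufab1 is shown because its ratio was the highest of all members, Ndufaf4 for the next highest, and Ndufs6 and Atp5h because they hold 2 motifs each. Sequences run 5′ to 3′ on the strand of the gene, and capitals mark motif matches on either strand. The Ndufab1 window holds none of the 3 motifs.
Ndufab1 (chr7:122101799-122102098, - strand): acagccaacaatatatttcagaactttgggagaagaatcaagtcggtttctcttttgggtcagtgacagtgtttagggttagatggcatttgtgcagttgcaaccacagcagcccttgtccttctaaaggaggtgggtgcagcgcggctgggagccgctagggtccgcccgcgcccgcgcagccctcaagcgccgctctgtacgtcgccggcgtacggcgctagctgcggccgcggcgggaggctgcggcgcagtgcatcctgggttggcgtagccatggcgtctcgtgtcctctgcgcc
Ndufaf4 (chr4:24897833-24898132, + strand): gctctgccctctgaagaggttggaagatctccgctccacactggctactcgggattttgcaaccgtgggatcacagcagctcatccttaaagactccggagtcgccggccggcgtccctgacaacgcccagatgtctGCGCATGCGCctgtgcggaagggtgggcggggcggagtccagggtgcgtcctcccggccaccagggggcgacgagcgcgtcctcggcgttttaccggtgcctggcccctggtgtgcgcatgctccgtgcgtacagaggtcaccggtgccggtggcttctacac
Ndufs6 (chr13:73328433-73328732, - strand): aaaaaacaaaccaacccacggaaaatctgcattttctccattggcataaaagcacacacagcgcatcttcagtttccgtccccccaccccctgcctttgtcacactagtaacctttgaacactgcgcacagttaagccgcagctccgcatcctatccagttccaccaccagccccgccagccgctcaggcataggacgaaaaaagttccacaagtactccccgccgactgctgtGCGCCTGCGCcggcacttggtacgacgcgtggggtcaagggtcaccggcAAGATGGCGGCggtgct
Atp5h (chr11:115419870-115420169, - strand): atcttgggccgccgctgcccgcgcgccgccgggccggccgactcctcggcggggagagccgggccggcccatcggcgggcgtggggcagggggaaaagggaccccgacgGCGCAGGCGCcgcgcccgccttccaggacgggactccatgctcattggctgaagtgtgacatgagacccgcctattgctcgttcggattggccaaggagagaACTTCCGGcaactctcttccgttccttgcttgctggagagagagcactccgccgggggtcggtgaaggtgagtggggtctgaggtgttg

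The Ndufaf4 window holds an NRF1 match at bases 138 to 147, counted from the first base shown. In Ndufs6 an NRF1 match, on the opposite strand, lies at bases 235 to 244 and a YY1 match at 284 to 294. In Atp5h an NRF1 match lies at bases 110 to 119 and an ETS match, on the opposite strand, at 212 to 219. Across the members, 20 of 81 windows (24.7%) held the NRF1 motif, beside 1512 of all 32851 promoter windows (4.60%). Member windows were richer in G and C, with a median GC share of 58.3% beside 52.7% for all windows. Among windows at or above that 58.3%, a restriction chosen after the data had been seen, 13 of 41 member windows (31.7%) and 10.4% of 11074 windows overall held it. The ETS motif was found in 5 member windows (6.17%) beside 3.89% of all windows, and at high GC in 4.88% beside 6.83%. YY1 was found in 5 (6.17%) beside 0.986% of all windows, and at high GC in 1 of 41 (2.44%) beside 2.10%.

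**Figure D1:**
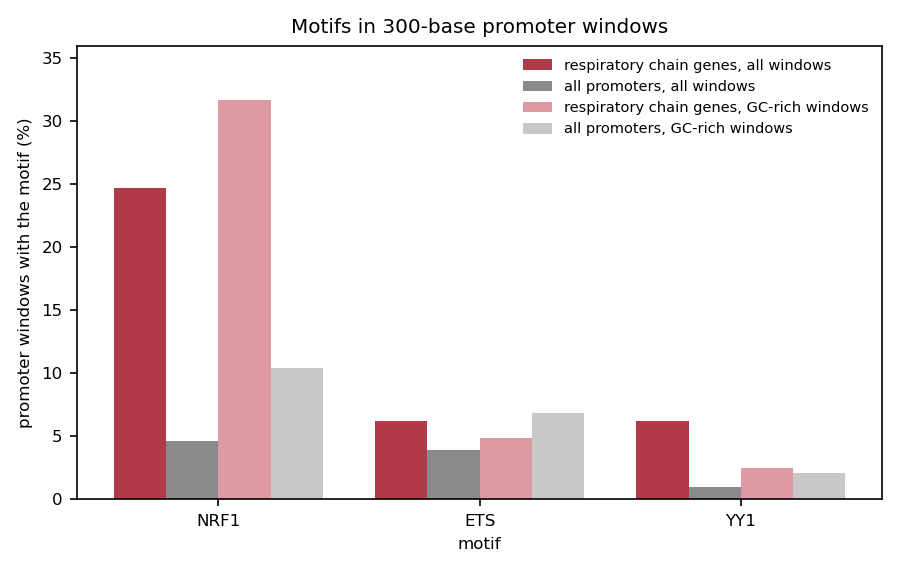
Share of 300-base promoter windows (%, vertical axis) that hold each of 3 motifs (horizontal axis), for respiratory chain genes and for all promoters, over all windows and over GC-rich windows (GC share at or above the members' median of 58.3%). The NRF1 bars of the respiratory chain genes stand at 24.7% and 31.7%, those of all promoters at 4.60% and 10.4%.

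NRF1 matches were spread over all classes of members. They were present in 8 of 35 windows of complex I, 2 of 7 of the assembly factors, 2 of 3 of complex II, 1 of 5 of complex III, 1 of 13 of complex IV (Cox6a1) and 6 of 18 of complex V. YY1 matches were found in 4 windows of complex I (Ndufa9, Ndufs4, Ndufs6 and Ndufs7) and in 1 of the assembly factors (Ndufaf8). The ratios of genes with an NRF1 match overlapped those of the others. The 19 such genes had a median log2 ratio of -0.0027, with 9 of them above 0 and a range from -0.44 (Ndufaf5) to 0.96 (Ndufaf4). The 55 genes with a window but no match and with a ratio had a median of 0.09. All 5 genes with a YY1 match had ratios above 0, from 0.01 (Ndufs4) to 0.53 (Ndufa9), with a median of 0.46, although Ndufs4 lay below 0 with the array median as the scale. The 69 other genes with a window and a ratio had a median of 0.08, and 60% of all members with a ratio were above 0. The 5 genes with an ETS match had a median of -0.16, with 2 above 0. A match is a run of letters and not a measured binding site.

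Respiratory chain genes were detected almost throughout. A signal well above background was found with 120 of the 124 probes in both genotypes and with 4 in neither. As a result 90 of 93 genes had a ratio, each measured on both arrays. The 3 others were Cox7b2, Cox8b and Cox8c, isoforms of complex IV subunits known from testis or muscle, and the remaining dim probe was a second probe of Ndufaf5. Over all named genes, 14136 of 20660 had a ratio.

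The respiratory chain genes lay close to equal relative signal in the 2 genotypes. Their median log2 ratio was 0.04, beside 0.0006 for all genes with a ratio. By the main scaling 54 genes were higher and 36 lower in ESAM-KO, and by the array median in place of the 75th percentile the split turned to 39 higher and 51 lower. The number of members above the median of all genes was 54 by the main scaling and 55 by the array median. The quartiles of the ratios lay at -0.10 and 0.27 (interquartile range 0.36), whereas the interquartile range over all named genes was 0.78. The ratio stayed within the scanner error for 46 genes (51.1%), exceeded it upwards for 30 and downwards for 14. Over all genes with a ratio it stayed within the error for 4913 (34.8%), exceeded it upwards for 4468 and downwards for 4755. Of the 90, 1 gene (1.11%), Ndufab1, was past 2-fold, and it was higher in ESAM-KO. Over all 14136 genes 15.4% were past 2-fold, 6.99% higher and 8.43% lower. Among the 12615 genes measured on both arrays, as all 90 members were, 12.6% were past 2-fold. Ndufa5, Ndufaf4 and Ndufc1 were further past 1.5-fold higher, and Cox6a2, Cox6b2 and Ndufa7 past 1.5-fold lower. No share of all genes was computed at that threshold.

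Most respiratory chain genes were bright, and a comparison at like brightness was added after the data had been seen. An unscaled signal over 1000 on both arrays was reached by 73 members and by 2882 named genes in all. Among the 2882, 1.77% were past 2-fold. None of the 73 members was, beside 51 of the 2809 other genes (1.82%). The interquartile range of the log2 ratios was 0.35 for the 73 members and 0.50 for the 2809 others, with medians of 0.02 and -0.0032. The 17 dimmer members with a ratio spread more widely, with an SD across genes of 0.52 against 0.30 for the bright ones. At like brightness, the share of members past 2-fold thus lay near that of other genes.

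**Figure D2:**
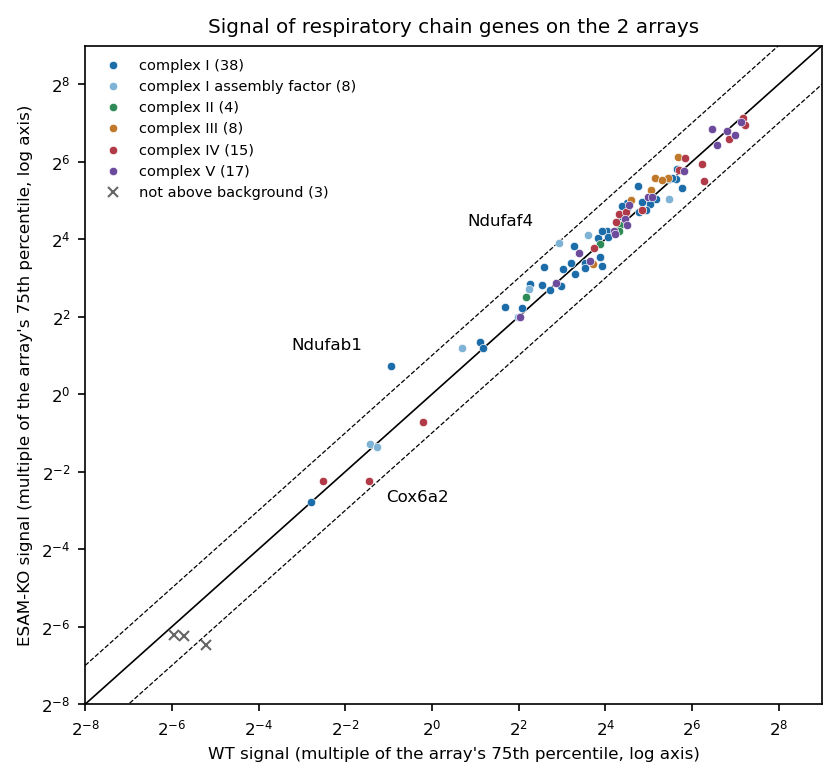
Relative signal (multiple of the array's 75th percentile, log axes) of each respiratory chain gene in WT (horizontal) and ESAM-KO (vertical). Each point is 1 gene coloured by complex, the solid line marks equal signals, the dashed lines 2-fold. Points lie along the solid line, Ndufab1 lies beyond the upper dashed line, and 3 genes not above background (crosses) lie at the lower left.

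Complex I, NADH dehydrogenase, had a median log2 ratio of 0.12 over its 38 genes, with 25 higher and 13 lower in ESAM-KO. With the array median as the scale its median was -0.0081 and that of all genes -0.13, so its side of 0 depends on the scale. Only Ndufab1 was past 2-fold. Ndufab1, the mitochondrial acyl carrier protein that also serves fatty acid and lipoic acid synthesis, had a relative signal of 0.520 in WT and 1.65 in ESAM-KO (log2 ratio 1.66 ± 0.21). It was represented by 1 probe with 1 spot, and a pseudogene, Ndufab1-ps, is annotated, and whether the probe reads it was not tested. Without it the median of complex I was 0.10 and the highest ratio was 0.69.

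Next in order was Ndufc1, a small subunit of the membrane arm, with 5.98 in WT and 9.66 in ESAM-KO (0.69 ± 0.20). Ndufa5, an accessory subunit of the peripheral arm, gave 26.9 and 41.1 (0.61 ± 0.20), and its second probe gave a log2 ratio of 0.77. Ndufb4 was at 3.21 and 4.80 (0.58 ± 0.20), with 0.59 from its second probe. For these genes ESAM-KO was higher by more than the scanner error with every probe. Ndufa7, an accessory subunit, stood at the other end with 15.1 in WT and 9.88 in ESAM-KO (-0.62 ± 0.20). Ndufa1, a membrane arm subunit needed for assembly, was at 54.1 and 40.2 (-0.43 ± 0.20). Among the genes named for high signals, Ndufa13 (GRIM-19) gave 50.1 and 56.4 (0.17 ± 0.20) and Ndufb7 gave 49.9 and 47.0 (-0.09 ± 0.20). Neither ratio exceeded the scanner error.

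Several core subunits of complex I, the part of the enzyme that holds the flavin and the iron-sulfur clusters, were also examined. Ndufs1, the largest iron-sulfur subunit, was at 9.89 in WT and 8.65 in ESAM-KO (-0.19), and Ndufs3 at 30.6 and 26.8 (-0.20). Ndufv1, which binds NADH and flavin, was at 14.7 and 11.6 (-0.34). Its partner Ndufv2 was at 14.2 and 16.4 (0.20). Of the subunits that lead electrons to coenzyme Q, Ndufs7 was at 5.82 and 7.03 (0.27) and Ndufs8 at 2.26 and 2.30 (0.02). By the main scaling the ratios of Ndufv1 and Ndufs7 exceeded the scanner error of 0.20, on opposite sides of 0, and the others did not. With the array median as the scale Ndufs7 fell within the error, while Ndufs1 and Ndufs3 exceeded it downwards.

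The 8 complex I assembly factors, which help to build the enzyme and are not part of it, had a median of 0.31, with 6 higher and 2 lower. Ndufaf4 was the highest, at 7.69 in WT and 15.0 in ESAM-KO (0.96 ± 0.20), just under 2-fold, and its second, dimmer probe gave 1.14. Ndufaf2, a chaperone of late assembly, was at 12.2 and 17.3 (0.50), Ndufaf8 at 1.62 and 2.29 (0.50) and Ndufaf7, a methyltransferase, at 4.73 and 6.55 (0.47). These 4 ratios exceeded the scanner error. Ndufaf5, which hydroxylates a core subunit, was the lowest, at 44.4 and 32.8 (-0.44 ± 0.20). Ndufaf1 (0.15), Ndufaf6 (0.01) and Ndufaf3 (-0.10) stayed within the error.

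Complex II, succinate dehydrogenase, also an enzyme of the tricarboxylic acid cycle, had near-equal signals in its 4 genes (median 0.01). Sdha, the flavoprotein, was at 14.7 in WT and 14.6 in ESAM-KO (-0.0027). The membrane anchors Sdhc and Sdhd were at 20.4 and 20.7 (0.02) and at 19.9 and 18.6 (-0.09). Sdhb, the iron-sulfur protein, was at 4.47 and 5.70 (0.35 ± 0.20) by its brighter probe, while a second probe gave -0.15, so no direction could be given for it.

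Complex III, the cytochrome bc1 complex, had a median of 0.22 over 8 genes, with 6 higher and 2 lower. With the array median as the scale the median was 0.09, still above 0. Uqcrb, a small subunit near the quinone site, was the highest at 51.5 in WT and 69.7 in ESAM-KO (0.44 ± 0.20). The lowest of its 3 probes gave 0.11. Uqcrh, the hinge protein, was at 35.7 and 47.8 (0.42) and Uqcr11 at 24.3 and 32.3 (0.41). Uqcr10 was at 43.4 and 47.6 (0.13), and its 3 probes lay between 0.13 and 0.25. The core protein Uqcrc1 was the lowest, at 13.2 and 10.3 (-0.36 ± 0.20). Its partner Uqcrc2 was at 33.2 and 38.8 (0.22), and the Rieske protein Uqcrfs1 at 28.6 and 26.9 (-0.09). Uqcrc1 and Uqcrc2, which form the core of the same complex, thus had ratios on opposite sides of 0 by more than the scanner error each. With the array median as the scale the ratio of Uqcrc2 stayed above 0 but fell within the error.

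Uqcrc2 also showed how well a single probe repeats within an array, since its probe was printed as 10 spots. After 2 spots marked as outliers were left out, the log2 ratios of the 8 others lay between 0.16 and 0.27, with an SD of 0.04. This spread is under the scanner error of 0.20, and it covers neither labelling nor the animals.

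Complex IV had 18 genes, of which 15 had a ratio, with 7 higher and 8 lower and a median of -0.04. Cox4i1 was at 144 in WT and 140 in ESAM-KO (-0.04 ± 0.20), and Cox6a1 at 149 and 124 (-0.26 ± 0.20). Cox5a, a matrix-side subunit, was the highest at 20.01 and 25.1 (0.33 ± 0.20). Cox7c was at 56.9 and 68.4 (0.27) by its brightest probe, and its 3 probes ranged from -0.25 to 0.27. Cox7a2l, a factor of the supercomplexes that join complexes III and IV, was at 116 and 95.7 (-0.28).

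Several subunits of complex IV exist as a general isoform and one known mainly from muscle, heart, lung or testis, and the ratios farthest from 0 in this complex were found among the latter. Cox6a2, the heart and muscle form, was dim at 0.368 in WT and 0.211 in ESAM-KO (-0.81 ± 0.23), while the general form Cox6a1 had -0.26. Cox6b2, the testis form, was at 78.2 and 45.2 (-0.79 ± 0.20), while Cox6b1, at 13.3 and 13.6, had 0.03. Cox7a1, the muscle form, was at 0.872 and 0.612 (-0.51 ± 0.21), and its counterpart Cox7a2, at 22.4 and 26.2, had 0.23. Cox4i2, the lung form, was at 0.176 and 0.211 (0.26 ± 0.25), beside -0.04 for Cox4i1. Thus 3 of the 4 restricted forms of complex IV with a ratio were lower by more than the scanner error, and none by 2-fold. Over all 14136 genes with a ratio, 4755 were lower by more than the error. Cox7b2, Cox8b and Cox8c were not well above background in WT or ESAM-KO, while their counterparts were detected, Cox7b at 19.0 and 21.9 (0.20) and Cox8a at 75.3 and 61.4 (-0.30). Ndufa4l2, a form induced in low oxygen, was at 0.144 and 0.145 (0.01 ± 0.29), and Ndufa4 at 36.3 and 32.8 (-0.14). Without the restricted forms the 11 other genes of complex IV had a median of 0.03, between -0.30 and 0.33.

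Muscle and fat genes were looked at beside these forms. Of 12 muscle markers 4 had a ratio, and Ckm, Mb, Myh1, Myh2, Myh4, Mylpf, Actn3 and Ryr1 stayed near background in both genotypes. The summed relative signal of the 12 was 2.67 in WT and 1.38 in ESAM-KO, and Tnnt1, a slow muscle troponin, was past 2-fold lower in ESAM-KO (-1.99 ± 0.21). Tnnc2, a fast muscle troponin, was higher by less than 2-fold (0.93 ± 0.28), and Acta1 (-0.13) and Tnnt3 (-0.15) stayed within the error. Of 6 fat cell markers 4 had a ratio, none past 2-fold, with sums of 0.989 and 0.922. Their part in the ratios of the restricted forms was not tested.

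The ratios of complex V lay close together. Its 17 genes had a median of -0.0065, an SD across genes of 0.18 and ratios from -0.28 to 0.38, with 8 higher and 9 lower. Of the catalytic head, Atp5a1 was at 112 in WT and 111 in ESAM-KO (-0.0065), Atp5b at 21.8 and 23.2 (0.09), Atp5c1 at 23.5 and 29.5 (0.33), Atp5d at 12.6 and 10.8 (-0.23) and Atp5e at 140 and 131 (-0.10 ± 0.20). The alpha and beta subunits, which form the catalytic sites, stayed within the error. Of the genes for the membrane ring that turns with the proton flow, Atp5g1 was at 18.3 and 18.5 (0.01), Atp5g3 at 56.2 and 54.6 (-0.04) and Atp5g2 at 127 and 104, the lowest of the complex (-0.28 ± 0.20). Atp5l, subunit g of the membrane part, was the highest at 88.3 and 115 (0.38 ± 0.20), but its 5 probes ranged from 0.02 to 0.38.

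**Figure D3:**
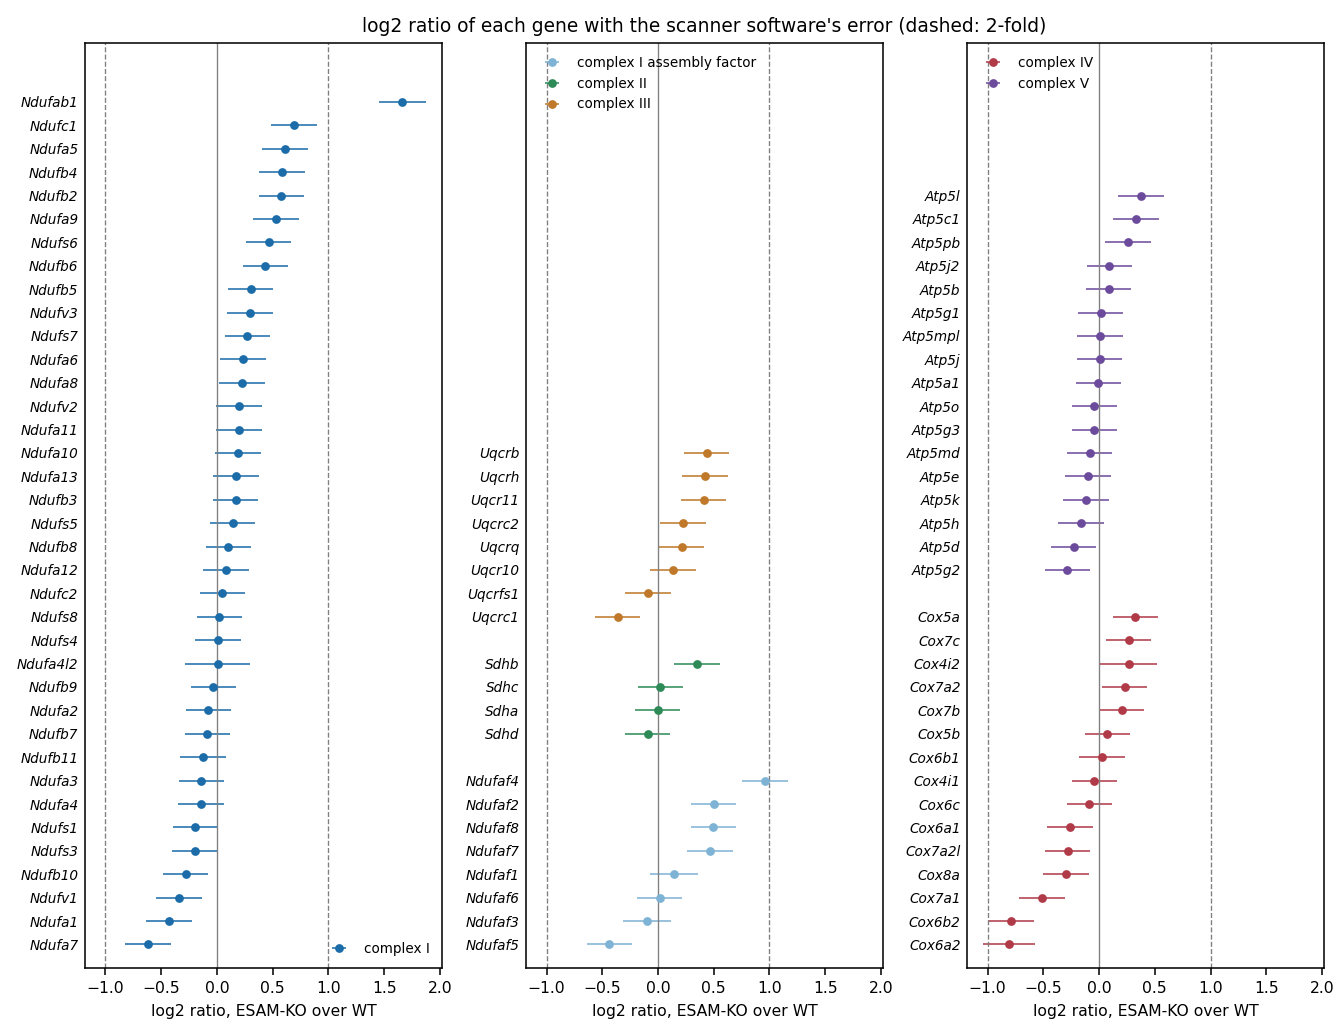
Log2 ratio of relative signals, ESAM-KO over WT (horizontal axis), of respiratory chain genes with a ratio, ordered within each complex (vertical axis), with 1 gene of complex I not shown. Bars show the scanner software's error and dashed lines 2-fold. Ndufab1 at 1.66 lies past the dashed line, and complex V spans from -0.28 to 0.38.

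Genes with several probes gave a check of single ratios, since both probes see the same RNA. Among the members, 23 genes had at least 2 probes above background on both arrays, 53 probes in all. The highest and lowest probe of a gene differed by a median of 0.15, and by 0.66 at most (Ndufv3). No member had probes more than 2-fold apart, beside 724 of 3056 named genes with several such probes, whose median difference was 0.47. Most members were bright, and this comparison was not matched for brightness. The probes lay on the same side of 0 for 16 members and on opposite sides for 7, namely Atp5h, Atp5j2, Cox7a2l, Cox7c, Ndufb11, Ndufv3 and Sdhb. Over all 3056 genes, 1775 had probes on the same side and 1281 on opposite sides. The probes of a gene can read different transcript forms. Copies or pseudogenes are annotated by name for 14 members, among them Ndufab1, Ndufb4, Uqcrh, Cox7c and Atp5l, and the share of their signal from such copies was not tested. The copies were found by symbol only, and no sequences were compared. A further 69 members had only 1 probe on the array and no such check.

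**Figure D4:**
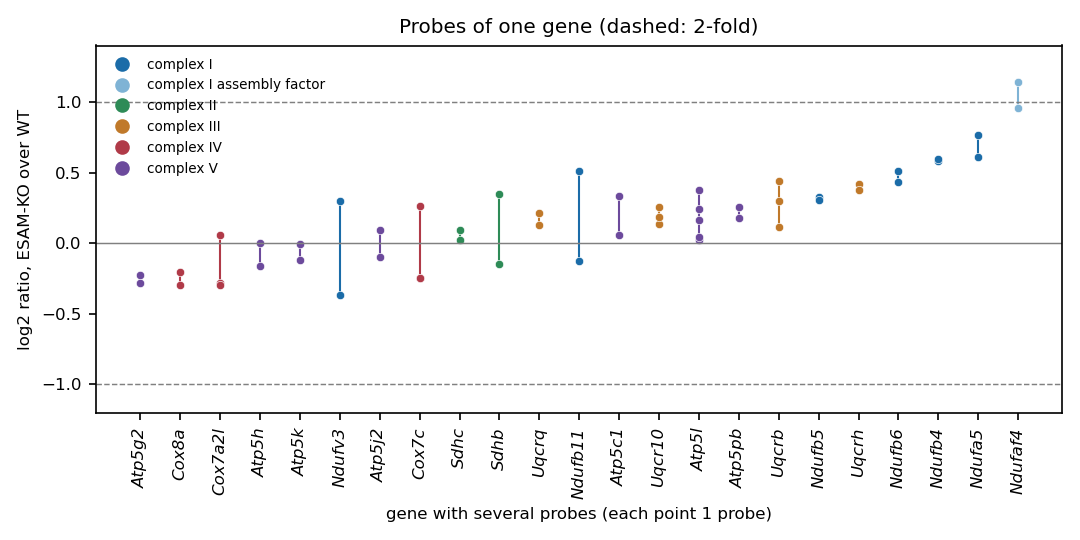
Log2 ratio, ESAM-KO over WT (vertical axis), of each probe of the 23 respiratory chain genes with several probes above background (horizontal axis). Each point is 1 probe, a line joins probes of one gene, and dashed lines mark 2-fold. Ndufv3 has the longest line, 0.66, and only 1 Ndufaf4 probe, at 1.14, lies past 2-fold.

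Genes that work with the chain but have other names were set beside the members. Of 6 further chain components found on the array none was past 2-fold, and their median was 0.11. Cytochrome c1 (Cyc1), a catalytic subunit of complex III, was at 14.6 in WT and 18.9 in ESAM-KO (0.38 ± 0.20). Cytochrome c (Cycs), the carrier between complexes III and IV, was at 10.2 and 16.1 (0.66 ± 0.20). Higd1a was also higher (0.34), whereas Higd2a (-0.51), Dmac2l (-0.82 ± 0.23) and Atpif1 (-0.11) were below 0, so that 3 of the 6 lay on each side.

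Assembly factors with other names were past 2-fold in no larger share than the 15.4% of all genes past 2-fold either way. Counted by direction, 6.99% of all genes were higher and 8.43% lower, and the 2 lists below lay above these shares. Of 21 complex IV assembly and copper delivery genes 2 (9.52%) were past 2-fold, both higher (median 0.06). Cox19, a copper-related assembly protein, was at 1.57 in WT and 4.29 in ESAM-KO (1.45 ± 0.20), and Sco1, a copper chaperone, at 0.187 and 0.472 (1.33 ± 0.24). Of 20 assembly genes of the other complexes with a ratio 3 (15%) were past 2-fold, all lower (median 0.02), and Lyrm7 was not above background. Most of these genes were dim, with 5 of the 21 and 3 of the 20 over a signal of 1000 on both arrays. With normexp and quantile normalization 1 of the first list and 2 of the second were past 2-fold, beside 5.11% of all genes. Ttc19, a factor of complex III, was at 3.98 and 1.23 (-1.69 ± 0.20). Sdhaf1 and Sdhaf2, factors of complex II, were at 11.5 and 4.20 (-1.45 ± 0.20) and at 0.253 and 0.100 (-1.33 ± 0.26). The Sdh subunits themselves lay between -0.09 and 0.35.

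Coenzyme Q synthesis makes the carrier between complexes I, II and III. Of its 12 genes with a ratio 5 (41.7%) were past 2-fold, beside 15.4% of all genes, and Coq3 was not above background. Most of these genes were dim, with 1 of the 12 over a signal of 1000 on both arrays. The count past 2-fold depended on the processing. After normexp and quantile normalization it was 1 higher and 0 lower, beside 5.11% of all genes past 2-fold either way. It was 4 and 0 without scaling, and 2 and 1 with the mean of the probes. Coq5 (1.54 ± 0.23), Coq6 (1.21 ± 0.21) and Pdss1 (1.25 ± 0.20) were higher in ESAM-KO, and Coq10a (-1.23 ± 0.21) and Pdss2 (-1.09 ± 0.23) lower. Pdss1 and Pdss2 encode the 2 partners of one enzyme, and their ratios lay on opposite sides of 0. Of 17 tricarboxylic acid cycle and pyruvate dehydrogenase genes 1 was past 2-fold, Dlat, a core subunit of pyruvate dehydrogenase, at 0.853 and 1.77 (1.05 ± 0.21), and the median was 0.16. With the array median as the scale, or with normexp and quantile normalization, 0 were past 2-fold. Of 8 carriers, porins and uncoupling proteins with a ratio none was past 2-fold (median -0.04).

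Of 18 regulators of respiratory gene expression and of mitochondrial DNA with a ratio, none was past 2-fold (median -0.05). Nrf1, the factor behind the NRF1 motif shown above, was at 2.39 in WT and 2.40 in ESAM-KO (0.0034 ± 0.20). Gabpa, the DNA-binding subunit of GABP, was at 5.70 and 4.35 (-0.39 ± 0.20). The coactivator Ppargc1b was at 0.316 and 0.474 (0.58 ± 0.22), whereas Ppargc1a stayed near background in both genotypes. Tfam, which packages and transcribes mitochondrial DNA, was at 3.72 and 4.66 (0.32 ± 0.20). Of the 18, 3 were higher by more than the scanner error and 7 lower, beside 4468 and 4755 of all 14136 genes with a ratio. The other regulators beyond the scanner error were Gabpb2 (0.25), Tfb1m (-0.64), Mterf1a (-0.36), Polg (-0.36), Esrra (-0.36), Myc (-0.32) and Polg2 (-0.22).

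**Figure D5:**
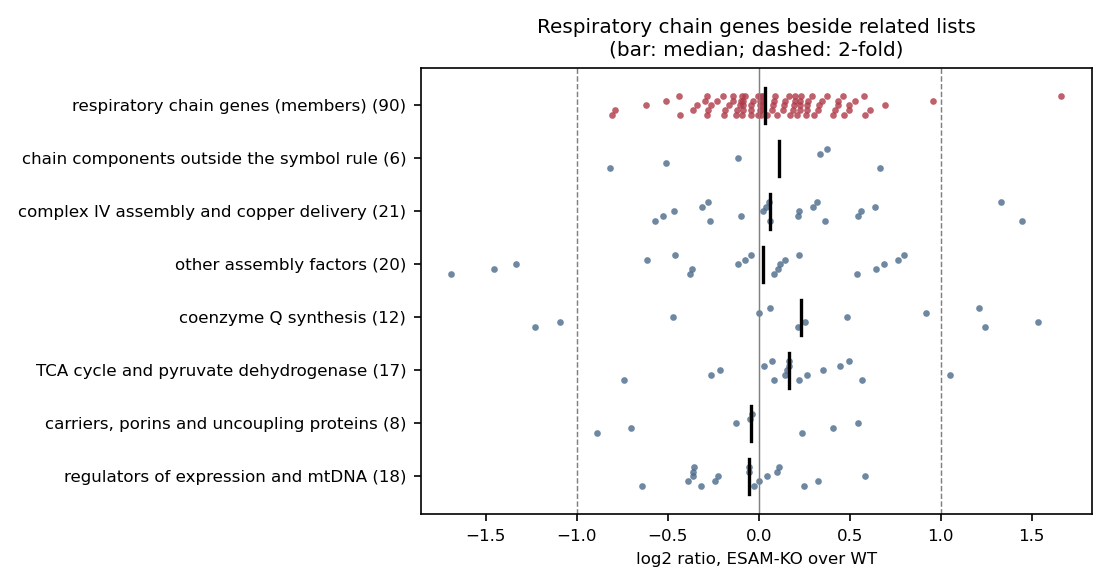
Log2 ratio, ESAM-KO over WT (horizontal axis), of respiratory chain genes and of related gene lists (vertical axis, number of genes with a ratio in brackets). Each point is 1 gene, the vertical offset within a row is for visibility, black bars are medians and dashed lines 2-fold. The medians lie between -0.05 and 0.24.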

How the data were processed

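Pre CFU-E of each genotype were measured on 1 single-colour array. Scanner tables deposited by the authors, made with Agilent Feature Extraction 10.10.1.1 (version per the submitters' processing notes), give a processed intensity per spot, corrected for background and not scaled from one array to the other. Without control spots 59305 remained, of which 57.3% (WT) and 61.1% (ESAM-KO) were well above background and 0 were saturated. Log2 intensity minus the log2 75th percentile of the array was used, which lowers each log2 ratio by 0.32. Spots marked as outliers (254) were left out, spots of a probe averaged, and a probe needed more than 50% of its spots well above background. Where this held on 1 array only the ratio was a bound, which no member needed. RefSeq accessions of GRCm38.p6 named 27235 probes (48.9%), and the brightest probe stood for a gene.

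The members and all gene lists were chosen with earlier results of these data known. Named are members past 2-fold, the 2 brightest and the extreme members of each complex, undetected members, tissue-restricted isoforms with counterparts, the member with 10 spots, and from the lists the genes past 2-fold, Cyc1, Cycs, Nrf1, Gabpa, Ppargc1a, Ppargc1b, Tfam and Esam. Others were added after their values were seen. Alternatives covered scaling, background correction (normexp, offset 50, on median spot signals), the series value table, filters, probes and thresholds. Python 3.11.15, pandas 2.3.3, numpy 2.4.6, R 4.3.3 and limma 3.58.1 were used, and the calculations were tested on simulated data. Precision is limited by having 1 array per genotype. The value of 1 member is not reported here, although it is counted in the summaries.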

Additional observations from a re-analysis of the deposited data

How the results depend on the processing

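With 1 array per genotype no library could be left out, and no result has a test. No paired analysis was possible because there is 1 array for WT and 1 for ESAM-KO. Ndufab1 was past 2-fold higher in ESAM-KO under every alternative run. The count of members past 2-fold higher was 1, and it became 3 without scaling (Ndufab1, Ndufaf4 and Ndufc1), 2 with the mean of the probes or with each probe on its own (Ndufab1 and Ndufaf4) and 4 at a threshold of 1.5-fold. The count lower was 0, and it became 1 without the filter on dim probes (Cox8b, below background on both arrays) and 3 at 1.5-fold. At 3-fold the counts were 1 and 0. The share of all genes past 2-fold either way was 15.4% by the main scaling, 17.8% without scaling and 14.6% with the mean of the probes. It was 16.5% with each probe on its own and 19.9% without the filter on dim probes. No share of all genes was computed at 1.5-fold or 3-fold. Without scaling the median log2 ratio was 0.36 for the members (82 higher, 8 lower), 0.44 for complex I, 0.62 for its assembly factors, 0.33 for complex II, 0.54 for complex III, 0.28 for complex IV and 0.31 for complex V, and the median of all genes moved to 0.31. Scaling by the array median moved the median of all genes to -0.13 and that of the members to -0.09 (39 higher, 51 lower, in place of 54 and 36). The median of the members minus that of all genes stayed between 0.02 and 0.16 over all settings. Over all genes 2179 were past 2-fold, against 722 after normexp with quantile normalization and 4108 without the filter. Of 900 values of single members under the alternatives, 803 moved by less than the scanner error and 97 by more, 90 of these without scaling. A change of the side of 0 was counted only for members past 2-fold by the main scaling. That held for Ndufab1 alone, which stayed above 0, so changes of side among the other members were not counted. Of 396 values of the other gene lists, 39 moved. The causes were not tested. Signal over background limits the dimmest members, as for Cox4i2 and Ndufa4l2, whose errors were 0.25 and 0.29.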

Other observations

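The genes below were picked after their values were seen. Cox6b2 gave a relative signal of 78.2 in WT although it is known as a testis form, and the file holds 1 probe for it. The uncoupling proteins Ucp2 and Ucp3, neighbours in the genome, were both lower in ESAM-KO, at 32.4 in WT and 19.9 in ESAM-KO (log2 ratio -0.70 ± 0.20) and at 20.5 and 11.1 (-0.89 ± 0.20). Itgam, which encodes the lineage marker CD11b, was at 379 and 327 (-0.21 ± 0.20) in cells sorted as lineage negative.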
